A study of Homo sapiens with 22 samples.

Results

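N-MYC and WDR5 were compared with each other inside one cell line and one condition. The 6 peak lists of DMSO-treated CHP-134 cells, 3 for N-MYC and 3 for WDR5, were taken out of the 16 peak lists of the series, which has 22 samples, and together they hold 45014 peaks. Chromatin immunoprecipitation followed by sequencing (ChIP-seq) recovers DNA crosslinked to a protein, and a peak is a stretch of genome where that DNA piles up, with a summit at its highest point. The questions were whether both proteins rank their shared sites in the same order, how far apart their summits lie, and at which genes one protein ranks high while the other ranks low.

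CHP-134 is a neuroblastoma line with amplified MYCN, the gene for N-MYC. The cells had been exposed to DMSO, the solvent control of the study, for 4 h, at 0.005% by the extraction protocol and at 0.0005% in the treatment label. N-MYC was pulled down with a serum raised for this purpose and WDR5 with a commercial antibody, and each library pools 3 immunoprecipitations. All 6 lists come from a single line, and the study's methods describe its ChIP-seq experiments as independent repeats. The labels do not say whether the libraries came from separate cultures, and p-values measure the spread between these libraries.

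N-MYC is a basic helix-loop-helix leucine zipper protein that binds DNA as a dimer with MAX, and its preferred site is the E-box, the palindrome CACGTG. WDR5 is a ring-shaped WD40-repeat protein with no DNA-binding domain of its own known from its structure. It is a scaffold of the MLL/SET1 histone methyltransferase complexes and also meets MYC proteins through a conserved stretch called Myc Box IIIb. Both proteins are known for their presence at genes of ribosomes and translation.

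The N-MYC lists held 15286, 9125 and 12283 peaks and the WDR5 lists 4891, 1758 and 1671 peaks, in the order of replicates 1, 2 and 3. The lists hold no read counts, so depth is unknown, and WDR5 replicate 1 stands apart by its number of peaks. Each peak carries a fold enrichment over local background, which depends on its own library. A peak was therefore given its percentile within its own list, where 100 is the strongest peak of the list, and only percentiles were compared between lists. Peaks present in at least 2 of 3 lists of a protein and overlapping those of the other by at least 1 bp gave 1426 cobound sites. Of these, 598 had a peak in all 6 lists, and 536 of the 598 lay within 1 kb of an annotated transcription start site (TSS). Both proteins had to be called in every list, and these 598 sites leaned toward strong peaks. The median of the mean percentile was 78.8 for N-MYC and 69.3 for WDR5. Weak peaks were still among them, such as N-MYC at MAGEF1 with a percentile of 0.659 in replicate 3.

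The sequences at the summits differed between sites where N-MYC ranked high and sites where WDR5 ranked high, so they are shown before the ranks. The sites below were named for a large rank difference or a very high rank, and only named sites that hold the sequence are shown. Of the 10 named sites with the largest gap toward N-MYC, 5 had an E-box within 100 bp of the N-MYC summit, and of the 10 toward WDR5, 0 had one. Over all 598 sites 247 (41.3%) had one, so 5 of 10 is near the share of all sites. Each line gives 30 bases of the GRCh37 (hg19) sequence, read along the strand of the gene, around the E-box nearest to the N-MYC summit, with the E-box in capitals. PDIA4, PTBP1, ZFP36L2, NT5DC3, EIF4H and the noncoding RNA gene LINC02078 were sites where N-MYC ranked higher than WDR5, and NCL, GET4 and APEX1 were among the strongest N-MYC sites.
PDIA4 (chr7:148726046-148726075, minus strand): ctccggtaccgaCACGTGttcttactgcca
PTBP1 (chr19:797162-797191, plus strand): ctcagacgccgtCACGTGatcccattttct
LINC02078 (chr17:77681052-77681081, plus strand): tcctcccctgccCACGTGgcctgggcggga
ZFP36L2 (chr2:43454299-43454328, minus strand): ccaccgcgactcCACGTGcagtcgggctgg
NT5DC3 (chr12:104235032-104235061, minus strand): ggcctgcgccgcCACGTGttccgacgcagg
EIF4H (chr7:73588475-73588504, plus strand): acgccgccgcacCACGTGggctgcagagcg
NCL (chr2:232328551-232328580, minus strand): ctggcaagccgaCACGTGgtgggccccgga
GET4 (chr7:915970-915999, plus strand): ccgcctctgggtCACGTGttgcctgcggac
OSGEP/APEX1 (chr14:20923350-20923379, plus strand): aggtccgctaccCACGTGggggctcagcgt
NPM1, the gene of the nucleolar chaperone nucleophosmin, held a pair of E-boxes inside 61 bases centred on its N-MYC summit in intron 1. More than 1 E-box was not particular to NPM1. Within 100 bp of the N-MYC summit GET4 had 7, and NCL and OSGEP/APEX1 had 3 each. The 61 bases centred on the GET4 summit are a tandem repeat of a unit of 30 bases that holds the E-box. The GET4 count thus includes copies of that unit.
NPM1 (chr5:170815549-170815609, plus strand): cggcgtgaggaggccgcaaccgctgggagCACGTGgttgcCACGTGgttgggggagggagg

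At the strongest WDR5 sites a different arrangement recurred. It is ATC, then any 5 bases, then CCAT, here called the spaced pair and searched on both strands. Each line gives 30 bases around it, read along the strand on which it has this form, with ATC and CCAT in capitals. MAGEF1, BRD2, RPS6 and CCT7 were sites where WDR5 ranked higher than N-MYC, and RPS3, RPL5, SNHG15 and EIF3D were very strong WDR5 sites. Most of the 10 named sites with the largest gap toward WDR5 did not hold the pair, and SNHG15 also had 2 E-boxes near its N-MYC summit.
MAGEF1 (chr3:184429102-184429131, plus strand): acagacccaATCtggggCCATctcctccca
BRD2 (chr6:32940262-32940291, plus strand): ttcgtgttcATCcgcctCCATccgagatcg
RPS6 (chr9:19379999-19380028, plus strand): ccagccgcaATCgcctgCCATccgttcggc
CCT7 (chr2:73461532-73461561, plus strand): tccgtcgccATCagctgCCATctggccggt
RPS3 (chr11:75110752-75110781, minus strand): tctcactcaATCcaccgCCATccgcggccc
RPL5 (chr1:93297766-93297795, minus strand): gagctagcaATCtaacgCCATccggcccct
SNHG15 (chr7:45026154-45026183, minus strand): agtctagtcATCcaccgCCATcctgggccc
EIF3D (chr22:36925138-36925167, minus strand): gcacgcaccATCtgttgCCATcccggccgg

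N-MYC and WDR5 each kept their own order of sites, and no common order was seen. Over the 598 sites, Spearman's rho of the folds was 0.65 to 0.691 between the N-MYC lists and 0.723 to 0.758 between the WDR5 lists. Across proteins it ran from -0.0895 to 0.154 over the 9 pairs of lists, with a mean of 0.0045. No pair across proteins came near any pair within a protein. The mean within proteins exceeded the mean between them by 0.702 (exact permutation test over the 6 lists, two-sided, p = 0.1, the smallest that 3 lists against 3 can give). The correlations describe sites that share 6 libraries and a genome, and sites are not independent replicates. The 3 pairs across proteins with the same replicate number had a mean rho of 0.0842 and the 6 others a mean of -0.0354.

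**Figure D1:**
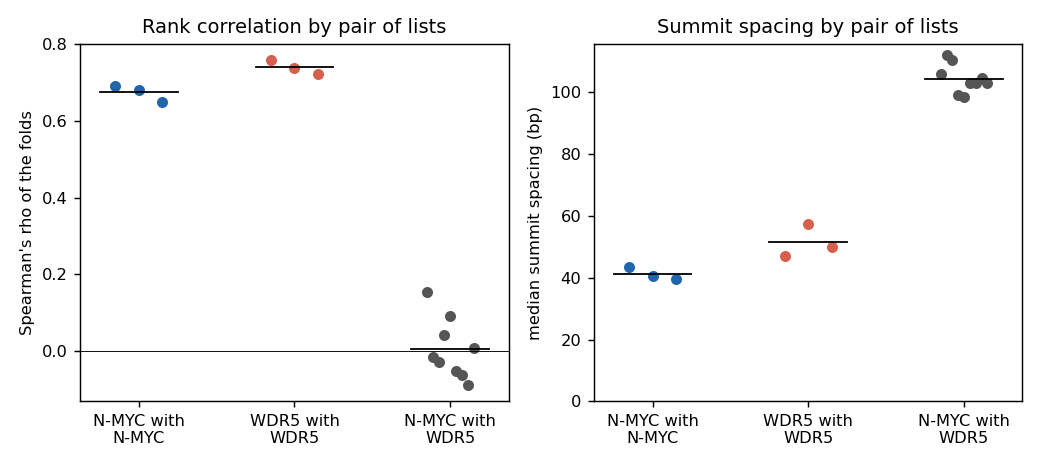
Each point is one pair of peak lists over the 598 sites, with Spearman's rho of the folds on the left and the median distance between summits (bp) on the right, and the bar is the mean of a group of pairs. All 9 pairs that join N-MYC to WDR5 lie near a rho of 0 and at 98.5 bp or more, while pairs within a protein lie at 0.65 or more and at 57.5 bp or less.

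Over whole lists, strong N-MYC peaks more often had a WDR5 peak with them. Each list was split by fold into 5 classes of equal size, from the lowest to the highest. Among N-MYC peaks, the share that overlapped a WDR5 consensus peak was 5.87% ± 2.23 (SD, n = 3 lists) in the lowest class of a list and 27.2% ± 2.59 in the highest class, a difference of 21.3 percentage points in the same direction in 3 of 3 lists. Both values of such a contrast come from the same 3 lists, so the signs of the within-list differences were flipped in a paired exact permutation test with both directions counted, here and for all contrasts within lists below. This exact test gave p = 0.25, and 3 lists cannot give less. The rise sat at the top of the lists, since the class next to the highest held 11.5% ± 2.17. Among WDR5 peaks the share with an N-MYC consensus peak was 77.6% ± 7.37 in the lowest class and 82.3% ± 3.37 in the highest, a difference of 4.69 points. That value depended on the ranking and the overlap used, since it was 17.8 points when peaks were ranked by −log10 q, 11.2 with summits within 250 bp and 9.30 with 10 classes. The N-MYC difference became 11.9 points without WDR5 replicate 1, the list with the most peaks.

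Strong binding of one protein was thus found with strong, middling and weak binding of the other. A mean N-MYC percentile of at least 90 was reached by 170 of the 598 sites and a mean WDR5 percentile of at least 90 by 140. Both were reached by 32 sites. At 46 of the 170 sites WDR5 stood under percentile 50, and at 24 of the 140 sites N-MYC did. The long noncoding RNA gene SNHG15, which hosts small nucleolar RNAs, was among the 5 strongest sites of both proteins. Its N-MYC percentiles were all 99.9 and its WDR5 percentiles were 99.5, 99.1 and 99.3, so the lists of both proteins place it near the very top.

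The 5 sites with the highest mean N-MYC percentile were DNAAF5, SNHG15, GET4, RPUSD4/FAM118B and NCL. GET4 takes part in the insertion of tail-anchored membrane proteins and had WDR5 percentiles of 98.9, 94.5 and 94.7. RPUSD4, a mitochondrial pseudouridine synthase, shares a divergent promoter with FAM118B, where WDR5 stood at 95.5, 89.2 and 78.1. DNAAF5, a dynein arm assembly factor, had its N-MYC summit in intron 8 at percentiles of 99.98, 99.99 and 99.99, with WDR5 at 89.8, 83.2 and 57.3. With the replicate block DNAAF5 and RPUSD4/FAM118B were called N-MYC higher (adjusted p = 0.0042 and 0.0033), and GET4 was not (0.0793). NCL, the gene of nucleolin, was different, because its N-MYC percentiles of 99.99, 99.98 and 99.7 stood beside WDR5 percentiles of 83.3, 35.9 and 3.83, which scatter over most of the range (adjusted p = 0.059, and 0.0048 with the block).

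The 5 sites with the highest mean WDR5 percentile were RPS3, PPP2R2A, RPL7/RDH10, SNHG15 and RPL5, of which RPS3, RPL7 and RPL5 encode ribosomal proteins and PPP2R2A a regulatory subunit of protein phosphatase 2A. N-MYC stood at 93.0, 96.8 and 93.9 at RPS3 and at 82.3, 91.0 and 99.1 at RPL5. At PPP2R2A the N-MYC percentiles were 70.1, 97.7 and 92.3. The WDR5 percentiles of these sites, which were chosen by WDR5 rank, were 98.46 or more in every list. The N-MYC percentiles spread more widely at each of them except SNHG15, where N-MYC varied less than WDR5.

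A test of the rank gap, which is the mean N-MYC percentile minus the mean WDR5 percentile of a site, was fitted with limma over all 598 sites with Benjamini-Hochberg adjustment. The gaps ran from -77.5 to 91.1 percentile points with a median of 7.01. N-MYC ranked higher at 55 sites (9.2% of those tested) and WDR5 at 34 sites (5.69%) at an adjusted p under 0.05. Same-numbered libraries of both proteins deviated together, and with the replicate number as a block the counts were 151 (25.3%) and 111 (18.6%). The 3 percentiles of N-MYC lay above all 3 of WDR5 at 167 sites (27.9%) and below them at 125 (20.9%). Ranking among the tested sites alone changed the split of calls to 140 and 138, and admitting sites found in at least 2 lists of each protein changed it to 201 and 70.

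The counts depended on single libraries. Leaving out N-MYC replicate 1, 2 or 3 left 40, 0 and 16 calls, and leaving out WDR5 replicate 1, 2 or 3 left 154, 0 and 40. In the fits without N-MYC replicate 2 and without WDR5 replicate 2, which made no call, limma still gave an unadjusted p under 0.05 at 213 and 184 sites. The direction of the gap at every named site that was called held in each of these fits. It could not do otherwise, because the percentiles of the proteins do not overlap at any of those sites.

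**Figure D2:**
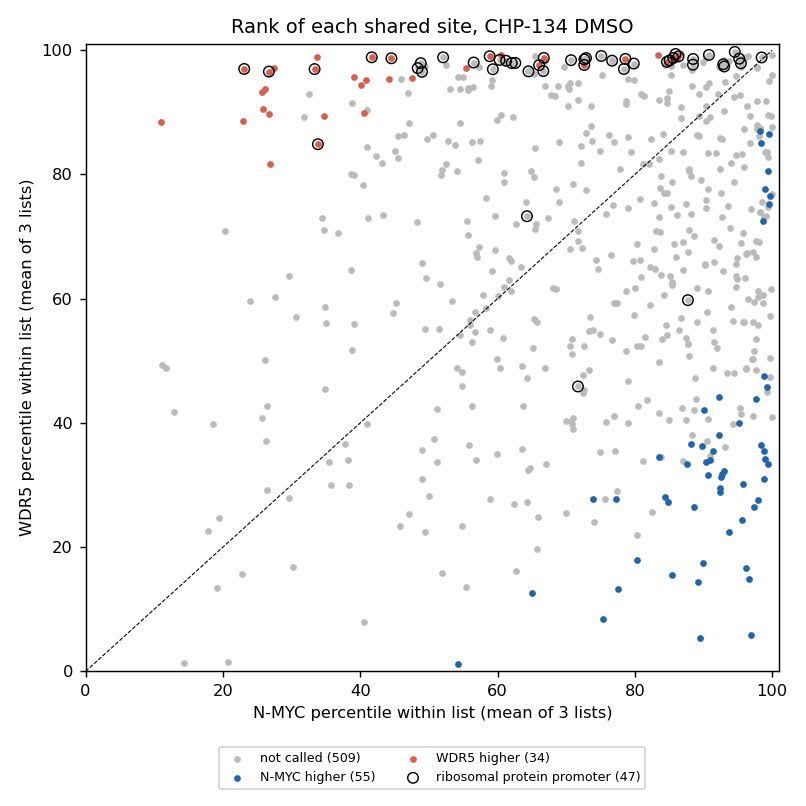
Each point is one of the 598 sites, with the mean N-MYC percentile on the horizontal and the mean WDR5 percentile on the vertical axis. Colours mark the 55 sites called N-MYC higher and the 34 called WDR5 higher, rings mark the 47 sites at ribosomal protein promoters, which lie mostly along the upper edge, and the dashed line marks equal percentiles.

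At the 10 promoter sites with the largest gaps toward N-MYC, N-MYC ranked 67.8 to 84.1 points above WDR5. PDIA4, a protein disulfide isomerase of the endoplasmic reticulum, lay at chr7:148725241-148726370 and had N-MYC percentiles of 95.4, 92.6 and 80.6 against WDR5 percentiles of 2.95, 10.8 and 2.57. Its gap was 84.1 ± 13.1 points (SE, limma adjusted p = 0.0173). Both summits lay upstream of the TSS, 15 bp apart. PTBP1, the polypyrimidine tract-binding regulator of splicing at chr19:796746-798429, had N-MYC percentiles of 96.3, 97.8 and 95.8 and WDR5 percentiles of 28.1, 15.1 and 1.29, a gap of 81.8 ± 13.9 (SE, adjusted p = 0.0221). The groups do not overlap at either site, which was a condition for naming these 10 sites. N-MYC was near the top of its lists while WDR5 stood no higher than percentile 28.1.

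The same direction was seen at LIMD2, at the divergent promoter of ZBTB8OS and RBBP4, at LINC02078, HNRNPK/RMI1, ZFP36L2, NT5DC3, SEC14L1 and RCOR3, with gaps from 67.8 to 79.5 points. RBBP4 is a histone-binding subunit of several chromatin complexes, HNRNPK an abundant RNA-binding protein, ZFP36L2 a decay factor of AU-rich mRNAs and RCOR3 a member of the CoREST corepressor family. RCOR3 had N-MYC percentiles of 99.2, 98.4 and 98.9 against WDR5 percentiles of 25.4, 22.2 and 45.4. NT5DC3 rested on a wide spread, since its WDR5 percentiles were 5.86, 71.8 and 5.15. At HNRNPK/RMI1 the summits were 1278 bp apart, the N-MYC summit in intron 1 of HNRNPK and the WDR5 summit upstream of it, so a single merged site there holds separate positions.

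The 10 promoter sites with the largest gaps toward WDR5 included 3 ribosomal protein genes. RPL3, a core protein of the large subunit at chr22:39714820-39716671, had N-MYC percentiles of 40.1, 5.75 and 23.5 and WDR5 percentiles of 99.4, 95.9 and 95.6. Its gap was -73.9 ± 14.6 (SE, limma adjusted p = 0.0236), and its summits, both in intron 1, were 2 bp apart. RPS14 at chr5:149828478-149829829 had N-MYC percentiles of 37.1, 10.7 and 32.2 and WDR5 percentiles of 98.7, 95.4 and 95.6. RPS6, the small subunit protein phosphorylated by S6 kinases, had N-MYC percentiles of 74.3, 19.5 and 6.26 and WDR5 percentiles of 99.7, 96.0 and 95.2. WDR5 was thus near the top in every list at these genes, and the N-MYC lists disagreed most at RPS6.

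The other 7 were MAGEF1, C2orf68/USP39, E2F2, MEPCE/ZCWPW1, BRD2, LBHD1/UQCC3 and ZNF18, with gaps from -77.5 to -63.0 points. MAGEF1 belongs to the MAGE family of ubiquitin ligase cofactors, and its gap was the widest in this direction, with N-MYC at 10.6, 21.8 and 0.659 and WDR5 at 95.3, 85.1 and 85.0. BRD2 encodes a BET-family reader of acetylated histones, and WDR5 stood there at 99.1, 98.6 and 99.1 against N-MYC at 23.0, 33.2 and 44.9. E2F2 is a cell cycle transcription factor, USP39 a spliceosome protein, MEPCE the capping enzyme of 7SK RNA and UQCC3 an assembly factor of respiratory complex III. At BRD2 the summits were 586 bp apart, and at LBHD1/UQCC3 412 bp.

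**Figure D3:**
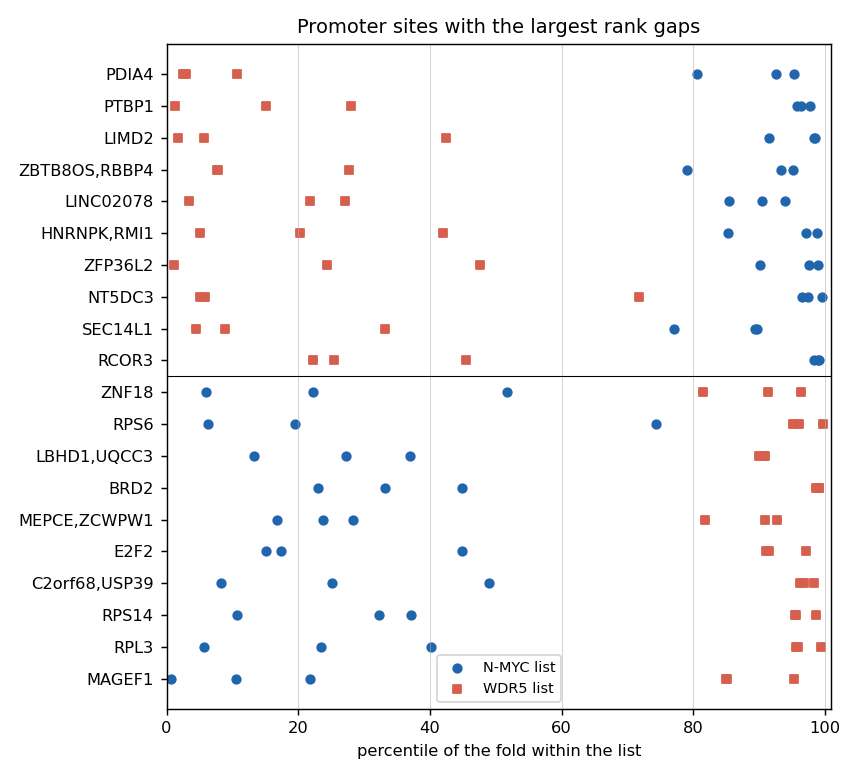
The 20 promoter sites with the largest rank gaps, named by their genes, with the percentile of the fold in each N-MYC list (circles) and each WDR5 list (squares). The line separates the 10 sites where N-MYC ranked higher from the 10 where WDR5 did. Circles and squares do not overlap in range at any of them, which was a condition for naming them.

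Cytosolic ribosomal protein genes leaned toward WDR5 in rank. N-MYC had a summit within 1 kb of a TSS in all 3 lists at 43 of 47 large subunit genes (91.5%) and WDR5 at 34 (72.3%). For the 33 small subunit genes these counts were 25 (75.8%) and 14 (42.4%). Over all 20090 protein-coding genes the shares were 25.8% for N-MYC and 3.78% for WDR5. Of the 47 tested sites at these genes, WDR5 ranked above N-MYC at 45, against 41.8% of all tested sites. WDR5 was called higher at 14 of the 47 and at 39 with the replicate block, and N-MYC at 0 in either fit, beside 5.69% and 18.6% of all sites called in the WDR5 direction. The 3 WDR5 percentiles lay above all 3 N-MYC ones at 38 of the 47, beside 20.9% of all sites.

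The medians over the 47 sites were 77.5, 74.3 and 78.2 in the N-MYC lists and 98.9, 97.4 and 97.5 in the WDR5 lists. The median of the mean N-MYC percentile was 72.2 at large and 66.7 at small subunit sites, against 78.8 over all 598 sites. N-MYC thus ranked somewhat below the typical tested site there, and its mean percentile was as low as 23.1 at RPL3. A site was tested only if it held N-MYC in all 3 lists. Of the 47, RPL19 and RPL23A had a gap toward N-MYC, and RPL19 was named after its values were seen. RPL23A had a gap of 28.0 ± 18.7 (SE, adjusted p = 0.264), with WDR5 percentiles of 87.5, 19.1 and 72.7 that scatter too widely for a call. The count of calls was 0 without N-MYC replicate 2 or without WDR5 replicate 2, 2 without WDR5 replicate 3, 7 without N-MYC replicate 3 and 8 without WDR5 replicate 1, while the median gap of the list stayed between -33.1 and -23.1 points in the 6 fits that leave out a library.

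Other genes of protein synthesis were nearer to balance. The list of translation initiation and elongation factors had 6 tested sites with median percentiles of 92.0 for N-MYC and 95.6 for WDR5. EIF4H, a cofactor of the eIF4A helicase, was called toward N-MYC, with N-MYC percentiles of 99.1, 98.3 and 99.1 and WDR5 percentiles of 46.8, 47.4 and 12.4 (gap 63.3 ± 15.2, SE, adjusted p = 0.0279). EIF3D, a cap-binding subunit of eIF3, had N-MYC at 96.3, 96.6 and 78.4 and WDR5 at 99.8, 99.3 and 97.2, a gap of -8.37 that was not called (adjusted p = 0.166, and 0.019 with the replicate block). The small nucleolar RNA host genes had 7 sites with medians of 95.8 and 97.1 and no call, and SNHG25 had the largest gap toward N-MYC among them (56.3 ± 20.8, SE, adjusted p = 0.0716). With the replicate block 3 of the 7 were called, 2 toward N-MYC, SNHG25 among them (adjusted p = 0.0039), and 1 toward WDR5. These counts are near the shares of all sites in that fit, 25.3% toward N-MYC and 18.6% toward WDR5. Among the 7, the call toward WDR5 was at SNHG9, which shares its site with RPS2 and was already counted among the 47 ribosomal protein sites.

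Of 35 ribosome biogenesis genes, 31 (88.6%) held N-MYC in all 3 lists and 6 (17.1%) held WDR5, beside 25.8% and 3.78% of all protein-coding genes. Their 5 tested sites had median percentiles of 93.8 for N-MYC and 71.4 for WDR5 and a median gap of 22.4. None was called, and with the replicate block 2 were called toward N-MYC, beside 25.3% of all sites. NPM1 had N-MYC at 99.5, 99.97 and 99.97 and WDR5 at 97.3, 90.2 and 80.6 (adjusted p = 0.0679, and 0.0048 with the block). BYSL, a ribosome assembly factor, was the single site of the list with WDR5 ranked above, and its percentiles overlapped. The count is too small to place the list apart from the 598 sites, whose median gap was 7.01.

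In the remaining lists fewer genes held WDR5 than N-MYC in all 3 lists, as over all protein-coding genes (3.78% and 25.8%). The WDR5 share was well above 3.78% for the spliceosome (20.6%), chaperonins and heat shock proteins (13.0%), cell cycle (11.4%) and DNA repair (8.75%). For the others it was near or under that value. The N-MYC share ran from 31.25% for the adrenergic factors, near the 25.8%, to 76.7% for nucleotide synthesis. Nucleotide and one-carbon synthesis had N-MYC in all 3 lists at 23 of 30 genes and WDR5 at 1, TYMS being the tested site. Mitochondrial ribosomal proteins had N-MYC at 41 of 79 and WDR5 at 2, aminoacyl-tRNA synthetases 11 of 22 and 0, and oxidative phosphorylation 25 of 70 and 2. The proteasome list had 10 of 31 and 1, DNA repair 45 of 80 and 7, the cell cycle and DNA replication list 39 of 70 and 8, and the spliceosome list 42 of 63 and 13 (20.6%). Chaperonins and heat shock proteins had 15 of 23 and 3. WDR5 and the MLL/SET1 subunits themselves had 12 of 22 and 1, the MYC, MAX and MXD network 7 of 13 and 0, and the core transcription factors of adrenergic neuroblastoma 5 of 16 and 0.

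Single members of these lists stood out by rank. CCT7, a subunit of the TRiC chaperonin, had N-MYC at 62.5, 72.2 and 46.8 and WDR5 at 99.2, 99.9 and 98.4, a gap of -38.7 ± 10.97 (SE, adjusted p = 0.0436). SNRPB, a core spliceosomal Sm protein, had N-MYC at 71.3, 46.0 and 79.3 and WDR5 at 99.5, 97.8 and 99.8, which do not overlap, although the gap missed the threshold (adjusted p = 0.0533, and 0.0161 with the block). In the opposite direction APEX1, the base excision repair endonuclease, had N-MYC at 99.9, 99.7 and 99.8 and WDR5 at 89.8, 25.1 and 69.7 (adjusted p = 0.082, and 0.0144 with the block). MCM7, a subunit of the replicative helicase, had N-MYC at 89.7, 83.7 and 91.5 and WDR5 at 82.8, 4.49 and 27.1 (adjusted p = 0.0799, and 0.0085 with the block).

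Some promoters carried one protein at high rank with no peak of the other in any list. Of 6969 merged regions with an N-MYC peak in all 3 lists, 4034 (57.9%) overlapped no WDR5 peak, and 2544 of these lay within 1 kb of a TSS. The 10 strongest were at TBL1XR1, PPRC1, ENSG00000234692, NRSN2-AS1, LIG3, PRMT1, G3BP2/USO1, PPA1, PRDX4 and PDE4A. TBL1XR1, a subunit of the NCoR corepressor complex, had N-MYC percentiles of 99.7, 99.8 and 99.8 at chr3:176915517-176916113. LIG3, a DNA ligase, had 99.967, 99.2 and 98.6, and PRMT1, the main protein arginine methyltransferase, had 98.6, 99.4 and 99.0. All 10 had N-MYC percentiles of 97.8 or more in every list without a called WDR5 peak, which does not show that WDR5 is absent.

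The WDR5 lists are shorter than the N-MYC lists, so shares without the other protein cannot be compared between them. Of 772 merged regions with WDR5 in all 3 lists, 58 (7.51%) overlapped no N-MYC peak and 43 of these were at a promoter. Among the strongest were ENSG00000288759, DTNB, GET1 and MAGED2. DTNB, encoding a dystrobrevin, had WDR5 percentiles of 97.7, 94.4 and 93.4.

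The summits of both proteins were close but distinct. The median distance between the summits of 2 lists was 39.5 to 43.5 bp within N-MYC, 47.0 to 57.5 bp within WDR5 and 98.5 to 112 bp between proteins. The difference of 58.1 bp exceeded the spread among lists (exact permutation test, two-sided, p = 0.1). Summits of different proteins lay more than 250 bp apart at 22.7% to 25.6% of sites, against 7.53% to 9.36% for lists of the same protein. The 598 sites were likewise split into 5 classes by rank. When they were ranked by 1 list and the spacing was read from the others, the spacing was 117.6 bp ± 7.61 (SD, n = 3) in the lowest class of WDR5 and 68.4 bp ± 3.03 in the highest. By N-MYC rank it was 138.6 bp ± 7.83 in the lowest class and 81.9 bp ± 1.07 in the highest (exact paired permutation test, p = 0.25 for each). Summits of strong peaks can be placed more precisely, and the share of that in this difference was not tested.

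Relative to the nearest TSS, the median WDR5 summit lay downstream of the median N-MYC summit. Over the 536 promoter sites the median N-MYC offset was -36.5, -25.5 and -46.5 bp in the 3 lists and the median WDR5 offset 14.5, 35.5 and 16.0 bp, where negative values are upstream along the strand of the gene. The lists of the proteins do not overlap, and the difference was 58.2 bp (exact permutation test, two-sided, p = 0.1). From the canonical TSS of protein-coding genes it was 28.2 bp, and WDR5 itself was then upstream, with list medians from -27.5 to -4.5 bp. At sites with start sites on 1 strand only, the WDR5 medians ran from -14 to 15 bp. Only the order of the proteins, and not the side of the TSS on which WDR5 lay, held under these choices. Between means the difference was 24.7 bp. At the same site the WDR5 summit was downstream of the N-MYC summit by a median of 2.5 to 17 bp only, more than 50 bp downstream at 34.9% to 41.0% of sites and more than 50 bp upstream at 28.9% to 35.4%. N-MYC also lay nearer to the TSS, with 36.9% to 38.2% of summits within 100 bp of it against 21.6% to 23.7% for WDR5.

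Summits of both proteins lay further downstream at the strongest WDR5 sites. At the 111 promoter sites in the highest WDR5 class, N-MYC summits had median offsets of 62.0, 76.0 and 74.0 bp, against -55.0, -46.0 and -61.0 bp at the other 425. The WDR5 offsets there were 115, 115 and 112 bp against -34, -8 and -23 bp. Ranking by N-MYC gave the opposite, since at the 109 sites in the highest N-MYC class the WDR5 offsets were -60.0, -78.0 and -29.0 bp against 42, 69 and 34 bp elsewhere. The lists do not overlap in any of these contrasts (exact paired permutation tests, p = 0.25 each). Of the 111 sites, 43 were at ribosomal protein genes. Without those genes, the 68 remaining sites had WDR5 offsets of 94.0, 106.5 and 107.5 bp against -37, -12 and -27 bp elsewhere. Their N-MYC offsets were -9.5, 22.5 and -8.5 bp against -56, -47 and -62 bp, so the N-MYC difference fell from 124.7 to 56.5 bp. This comparison was added after the data had been seen.

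At ribosomal protein promoters the summits gathered in a narrow zone downstream of the TSS. Their 47 sites had N-MYC summits at a median of 82.0, 91.0 and 91.0 bp downstream of the TSS and WDR5 summits at 127, 120 and 124 bp. The interquartile range of the WDR5 offset was 45.8 bp ± 3.51 (SD, n = 3 lists) at these sites and 396.7 bp ± 4.04 at the other 489. From 50 to 200 bp downstream of the TSS lay 81.6% ± 1.23 of WDR5 summits and 68.8% ± 5.35 of N-MYC summits, against 20.8% ± 0.945 and 12.7% ± 0.625 elsewhere (exact paired permutation test, p = 0.25 for each protein). The spacing between proteins was 38 to 57 bp over the 9 pairs of lists there and 108 to 125 bp at the other promoter sites.

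**Figure D4:**
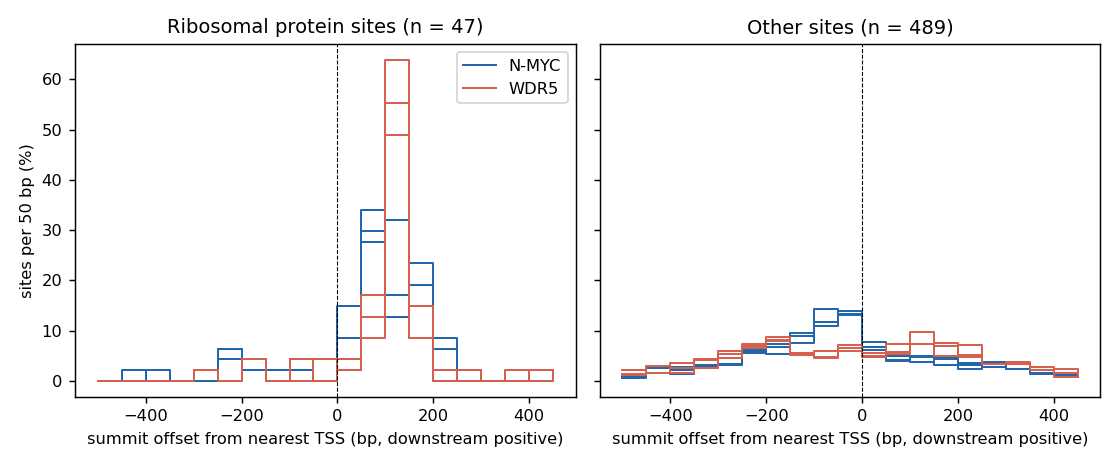
Histograms in bins of 50 bp of the summit offset from the nearest TSS, downstream positive, shown from -500 to 500 bp with one line per list, for the 47 ribosomal protein sites (left) and the 489 other promoter sites (right). WDR5 and N-MYC summits gather downstream of the TSS on the left, while on the right N-MYC peaks just upstream of the TSS and WDR5 lies to both sides.

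The share of sites with an E-box rose with N-MYC rank and was low at the strongest WDR5 sites. CACGTG lay within 100 bp of the median N-MYC summit at 247 of the 598 sites (41.3%, exact 95% interval 37.3 to 45.4), whereas a window of the same 201 bp around the canonical TSS held it at 5.34% of 20098 protein-coding genes. By N-MYC rank the share rose from 11.7% (6.53 to 18.8) in the lowest class to 73.1% (64.2 to 80.8) in the highest. By WDR5 rank it was 42.5% (33.5 to 51.9) in the lowest class and 17.6% (11.3 to 25.7) in the highest. Of all 2078 words of 6 letters at the N-MYC summits, CACGTG had the largest difference between the highest N-MYC class and the other sites. Intervals cover counting error over sites only. Outside the 598 sites, WDR5 peaks held it within 100 bp at 18.4%, 3.54% and 9.26% in the highest class of the 3 lists and at 12.4%, 16.5% and 13.5% in the rest. WDR5 replicate 1 thus went against the other lists, and the low share at strong WDR5 peaks was not seen in its list.

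Sites called in opposite directions differed in this share. An E-box was found at the N-MYC summit of 32 of 55 sites called N-MYC higher (58.2%, exact interval 44.1 to 71.3), at 0 of 34 called WDR5 higher (0 to 10.3) and at 215 of 509 sites not called (42.2%, 37.9 to 46.7). With the replicate block the counts were 102 of 151, 6 of 111 and 139 of 336. Where a site held an E-box anywhere, which was the case for 344 of the 598, N-MYC summits lay a median of 41, 34 and 33.5 bp from it and WDR5 summits 118, 124 and 103 bp, so N-MYC was nearer in every list (difference 78.8 bp, exact permutation test, two-sided, p = 0.1). Only 2 of the 47 ribosomal protein sites had an E-box within 100 bp of the N-MYC summit. The distance was a measure added after the data had been seen.

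The spaced pair of ATC and CCAT followed WDR5 rank. It was found by reading the sequences around the leading word of 6 letters at strong WDR5 summits, CCATCC, which lay within 100 bp of the WDR5 summit at 48.7% of sites in the highest WDR5 class and at 13.99% of the others, so its values at these sites are a description. It was within 100 bp of the WDR5 summit at 1, 1, 2, 13 and 48 sites in the 5 classes of the WDR5 rank, from the lowest up, each with 119 or 120 sites. The highest class thus held it at 40.3% of sites (exact interval 31.4 to 49.7). Around the canonical TSS of protein-coding genes the share was 1.15%. By N-MYC rank the share at the WDR5 summits fell from 14.2% in the lowest class to 6.72% in the highest.

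The pair recurred mainly with 5 bases between its parts. With 4, 5 and 6 bases between them the highest WDR5 class had 9, 48 and 6 sites, and with any other number from 0 to 10 at most 5. The pair was read from sequences of this same class, so these counts describe it and do not test it. The word was at the WDR5 summits of 14 of 34 sites called WDR5 higher (41.2%), of 0 of 55 called N-MYC higher (exact interval 0 to 6.49) and of 51 of 509 not called (10.0%). The WDR5 ranks behind these calls also led to the word, so this split is a description too. The pair lay at 22 of the 47 ribosomal protein sites, and at 26 of 76 sites (34.2%) of the highest WDR5 class that are not at those genes. Because the pair was found around WDR5 summits, that choice favours short distances to them, and the distances are a description. At the 100 sites that held the pair anywhere, WDR5 summits were 72.3 bp ± 4.86 (SD, n = 3) from it and N-MYC summits 145.3 bp ± 23.8. The distance was closer to equal at the 59 of these sites in the highest WDR5 class, 65.3 bp ± 5.03 and 85.0 bp ± 5.29, and the shares within 50 bp were 30.5% ± 3.39 for WDR5 and 31.1% ± 0.979 for N-MYC (exact permutation test, p = 1.0).

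WDR5 peaks outside the 598 sites, which had no part in finding the word, were read in the same way. In the highest class of each WDR5 list 5.8%, 15.04% and 13.9% of such peaks had it within 100 bp of the summit, against 1.31%, 2.51% and 3.08% of the other peaks (difference 9.28 points, exact paired permutation test, p = 0.25). The lists do not overlap. N-MYC peaks outside the 598 sites had it at 0.836% ± 0.11 in the highest class and 1.22% ± 0.162 in the rest. Of the 58 regions with WDR5 in all 3 lists and no N-MYC peak, 14 held the word (24.1%, exact interval 13.9 to 37.2) and 0 held an E-box (0 to 6.16). The GC content within 100 bp of the WDR5 summit was 63.0% ± 7.4 (SD over 119 sites) in the highest class and 68.1% ± 7.02 (120 sites) in the lowest, and its part in these shares was not tested.

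**Figure D5:**
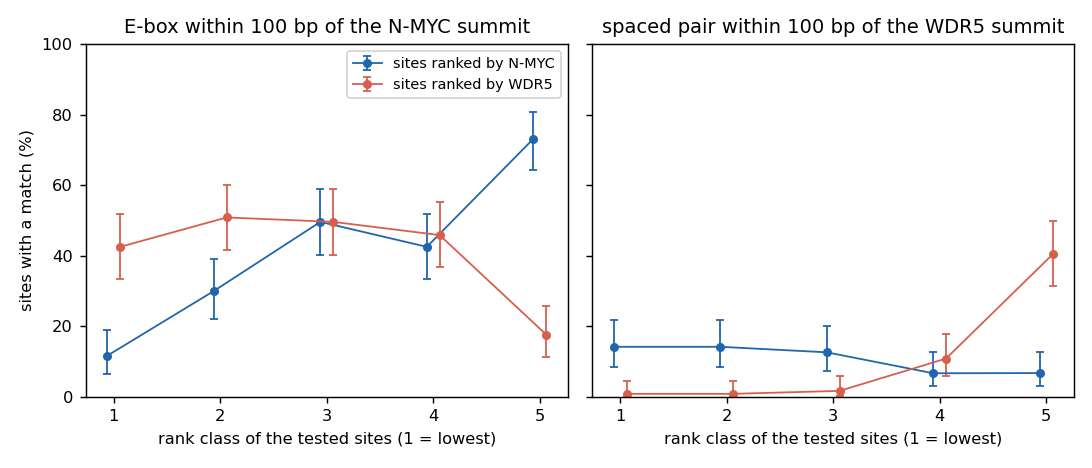
Share of sites (%) with the E-box within 100 bp of the N-MYC summit (left) and with the spaced pair of ATC and CCAT within 100 bp of the WDR5 summit (right), by class of the 598 sites ranked by N-MYC or by WDR5, with exact 95% intervals. The E-box share climbs to 73.1% with N-MYC rank and drops to 17.6% in the highest WDR5 class, while the spaced pair reaches 40.3% only in the highest WDR5 class.

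The division between N-MYC sites and WDR5 sites was seen again in IMR-32, another N-MYC amplified neuroblastoma line, which was untreated and had 2 libraries for each protein. By the paper's methods the lines were sequenced on different instruments, CHP-134 with single and IMR-32 with paired reads. Differences between the lines therefore cannot be told apart from differences in sequencing. At the 248 sites with a peak in all 10 lists of both lines, N-MYC and WDR5 folds of IMR-32 had rho from -0.182 to 0.0197 across proteins, 0.704 within N-MYC and 0.953 within WDR5. The rank gap had the same sign in both lines at 216 of the 248 sites (87.1%), and rho of the gaps was 0.776 over these sites, a description of sites bound in both lines. Of the 55 sites called N-MYC higher in CHP-134, 16 had a peak in all 10 lists, and of the 34 called WDR5 higher, 21 had one. All 16 and all 21 had the same direction in IMR-32, and the other called sites were not compared. A test of the difference in gap between lines (limma, protein by line term) called 0 of the 248 sites at an adjusted p under 0.05, with 22 at an unadjusted p under 0.05 and a smallest adjusted p of 0.0596, which does not show that the gaps were equal.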

How the data were processed

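Peak lists of both proteins from DMSO-treated CHP-134 cells were analysed, with untreated IMR-32 cells as the comparison. Adapter removal with Cutadapt, alignment (Bowtie2, hg19) and peak calling per library (MACS2, q-value 0.05) were done by the authors (versions and control library not given in the sources used here). The deposited lists give positions, summits, a fold enrichment (a linear ratio over local background), and −log10 p-values and q-values, and the authors' score, derived from the q-value, was not used.

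Percentiles of the fold within each list were computed with Python 3.11.15 and pandas 2.3.3, at the strongest overlapping peak. Rank gaps were tested with limma 3.58.1 (R 4.3.3, trend), adjusted over all 598 sites, and the fit was tried on simulated data. With normal noise of equal spread at every site, it called 37% of 200 planted gaps of 40 points and 0.251% of the other sites. A site that was not called can thus hold a gap of that size. Other comparisons used exact permutation tests over lists. Contrasts within lists used the paired form, added after the data had been seen in place of an unpaired test. Start sites were those of GENCODE 44 on GRCh37 (basic set, coding genes and lncRNAs), whose chromosome names match the lists. Offsets use the nearest TSS, and exon and intron positions the canonical transcript. Sequences were read from GRCh37. Exact Clopper-Pearson intervals are at 95%.

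Same-numbered N-MYC and WDR5 libraries deviated together (correlations 0.283, 0.285 and 0.295 of deviations from protein means, against -0.183 to -0.0864 for other pairs), so a fit with the replicate number as a block is given where it changes a count by over 1.5 times.

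Named sites were the 10 called promoter sites with the widest non-overlapping gap in each direction, the 5 strongest sites per protein, the strongest promoters bound by one protein alone, and extremes of 17 gene lists. Members and lists were chosen with earlier results of these data known. The E-box distances and the words found at summits were added after the data had been seen. Some items of these sets are not reported here.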

Additional observations from a re-analysis of the deposited data

Results flagged for a closer look

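At the divergent promoter of PI4KA and SNAP29 (chr22:21212250-21213528), the lists of CHP-134 and IMR-32 pointed in opposite directions, which singled it out among 118 sites whose percentiles were apart between proteins in CHP-134 and again in IMR-32. In CHP-134 the N-MYC percentiles were 79.9, 81.0 and 90.2 and the WDR5 percentiles 73.9, 65.0 and 73.5. In IMR-32 the N-MYC percentiles were 48.0 and 49.4 and the WDR5 percentiles 83.8 and 78.2. IMR-32 minus CHP-134, the gap differed by -45.2 ± 16.4 points (SE, limma, unadjusted p = 0.0178, adjusted p = 0.382), so the difference did not pass the threshold. Cell line and type of sequencing cannot be told apart in this comparison. This site was chosen after its values were seen.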

How the results depend on the processing

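Of 598 sites, 89 were called by rank gap (55 toward N-MYC, 34 toward WDR5). The count was 278 (140 and 138) with percentiles among the tested sites only, 225 (131 and 94) with normal scores, 208 (119 and 89) when ranked by −log10 q, 271 (201 and 70) with sites in at least 2 lists per protein, and 262 (151 and 111) with the replicate block. Leaving out 1 library gave 0 to 154 calls, 0 to 131 toward N-MYC and 0 to 30 toward WDR5. The 22 named sites that were called kept their direction in all 249 fits that gave them a value and lost the call in 79, all of which leave out a library. Leaving out a library could not change the direction, because the percentiles of the proteins do not overlap at these sites. All calls were lost without N-MYC replicate 2 or WDR5 replicate 2. The mean rho between proteins was 0.0842 within replicate numbers, the replicate block of that measure, and changed sign, staying near 0, without N-MYC replicate 1 or 2, without WDR5 replicate 1 or with stricter peaks (-0.0216). The spacing between proteins was 117.1 bp over all cobound sites, 89.6 bp with −log10 q of at least 5 and 181.7 bp as a mean cut at 1 kb. The E-box share of N-MYC-higher sites was 74.5% within 250 bp, and that of sites not called 34.6% within 50 bp and 51.1% within 250 bp. The gain in N-MYC peaks with WDR5 from the lowest to the highest of 5 classes was 11.3 points with WDR5 required in all 3 lists. The gain for WDR5 peaks was 17.8 points when ranked by −log10 q, 11.2 points with summits within 250 bp and 9.30 points over 10 classes. With 3 lists against 3 no exact test could fall under 0.1, or under 0.25 when paired within lists, and depth is unknown.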
